A study of Mus musculus with 12 samples.

Results

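Gem and its relatives Rrad, Rem1 and Rem2 form the RGK family of small GTPases, and their transcripts were followed in mouse blood progenitors 24 h after retroviral exposure began. The members were all probe sets of the deposited expression table that the platform annotation names with 1 of these 4 symbols and no other. There were 4 such probe sets among 45101, for 3 of the 4 genes: 1426063_a_at for Gem, 1422562_at for Rrad, and 1448860_at and 1457651_x_at for Rem2. Rem1 matched no single-symbol probe set here, so it was not analysed. The family was taken up because Gem had been seen lower with both forms of the fusion. Its values against the empty vector are therefore a description without a test. Rrad and Rem2 came in as relatives of Gem, whatever their values.

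RGK proteins belong to the Ras superfamily but differ from classical Ras proteins in that their activity is set largely by how much of the protein a cell makes. They bind the beta subunits of voltage-gated calcium channels and lower the calcium current, and they bind calmodulin and 14-3-3 proteins. Gem also alters cell shape. In lymphocytes Gem is known as a gene that is switched on soon after a mitogenic signal.

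All cells came from normal murine bone marrow and carried c-Kit and Sca-1 but neither lineage markers nor Flt3 at the sort. They grew for 24 h with 10% serum, 50 ng/ml stem cell factor and 5 ng/ml interleukin 6, met retrovirus for 4 h, and were kept for a further 20 h before the GFP-positive cells were sorted. MIB control received the empty vector (5 arrays, replicates 3 to 7). INV16 received the fusion of the core binding factor subunit CBFB with the myosin MYH11, found in human acute myeloid leukaemia (4 arrays, replicates 1 to 4). ACD mutant received that fusion without its assembly competent domain, a form the design text calls non-leukemogenic (3 arrays, replicates 1 to 3). Expression in all groups is thus driven by a retrovirus in short-term culture. Age and strain of the mice were not given in the sources used here. The design text describes the replicates as sorted, transduced and hybridised separately, which is the spread the p-values rest on.

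The median of an array was 5.62 to 5.79 log2 units, and precision is limited by how few arrays there were. Markers of the sorted cells were present on 11 arrays, with Kit at 10.26 to 11.43 and Cd34 at 11.15 to 12.35. Transcripts of Flt3, whose protein was absent from the sorted surface, measured 8.03 to 9.76. INV16 replicate 4 stood apart, with the progenitor gene Cd34 at 7.39 and the mast cell genes Cma1 and Fcer1a at 12.70 and 13.31, so it is given apart from the other 11 arrays. The arrays also split by the spike-in controls BioC and BioB, whose difference was 1.07 to 1.21 log2 on 6 arrays (MIB control replicates 3 to 5, INV16 replicates 1 to 3) and -0.11 to 0.07 on the other 6. The higher side held 0 ACD mutant arrays.

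Gem was clearly present in vector-treated progenitors and much lower with either fusion. Its level on the MIB control arrays was 9.05, 8.81, 8.97, 8.27 and 8.96 log2 units in replicates 3 to 7. With INV16 it was 6.64, 6.95 and 5.13 in replicates 1 to 3, and 4.37 in replicate 4. With the ACD mutant it was 5.51, 5.82 and 6.60. The lowest control array stood above the highest array of either fusion group, so the groups did not overlap, with or without INV16 replicate 4.

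**Figure D1:**
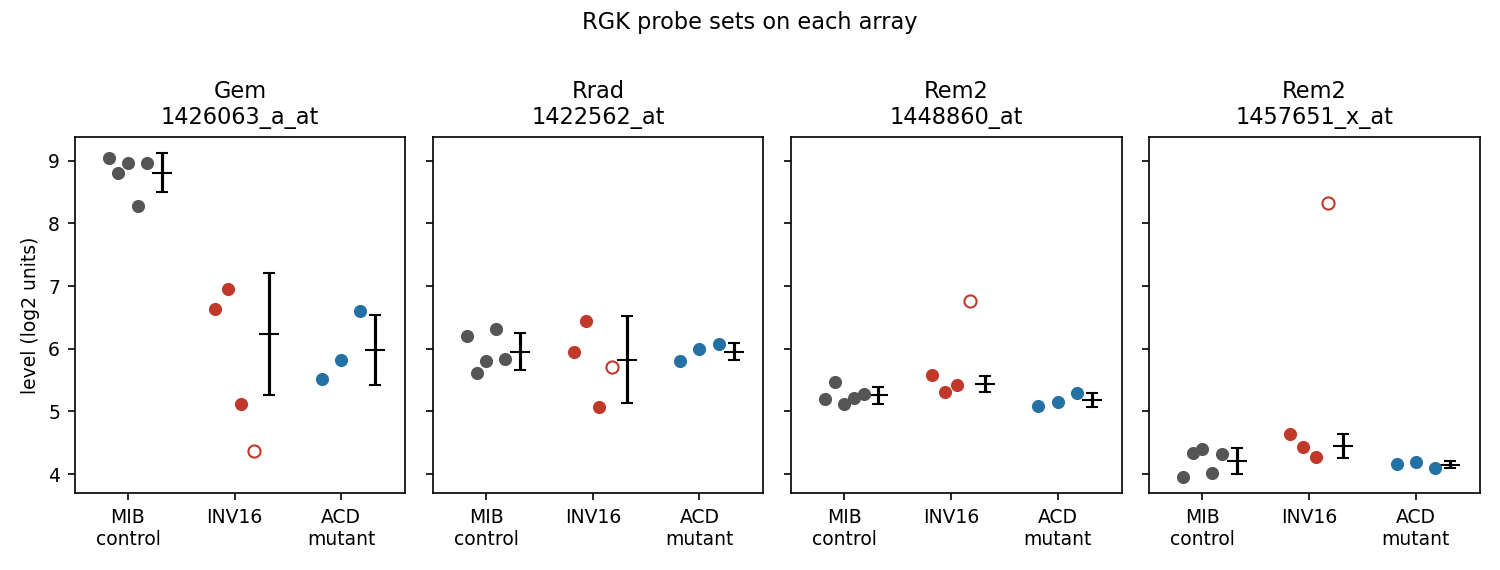
Level in log2 units (vertical axis) of each RGK probe set on each array, by group (horizontal axis). Filled points are the 11 arrays compared, the open point is INV16 replicate 4, and the bar beside each group is the mean ± SD without that array; Gem lies at 8.27 or more in MIB control and at 6.95 or less in both fusion groups.

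The mean Gem level in MIB control was 8.81 ± 0.31 (SD, n = 5). The INV16 mean was 6.24 ± 0.97 and the ACD mutant mean 5.98 ± 0.56 (SD, n = 3 each). The difference of INV16 from MIB control was -2.57 log2 (SE 0.36), which is a level 5.95-fold lower. The difference of the ACD mutant from MIB control was -2.83 log2 (SE 0.36), a level 7.13-fold lower. Both comparisons share the same 5 control arrays, and both differences are the values for which Gem was chosen. With INV16 replicate 4 included, the INV16 difference was -3.04 (SE 0.47). In bulk RNA, a loss of cells that carry Gem and less Gem RNA per cell cannot be told apart.

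Among 34945 single-symbol probe sets, Gem had the lowest difference of all in the ACD mutant, and in INV16 the lowest but for S100a8, which encodes a calcium-binding protein abundant in neutrophils, at -3.08. In this fit limma called 0.901% of the probe sets in INV16 and 0.953% in the ACD mutant, each against MIB control, at a Benjamini-Hochberg adjusted p under 0.05. Groups that did not overlap, with the fusion lower, were found for 3.75% of probe sets in the first comparison and 5% in the second. Nothing about Gem is inferred from these shares, since Gem was picked from the same comparisons.

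**Figure D2:**
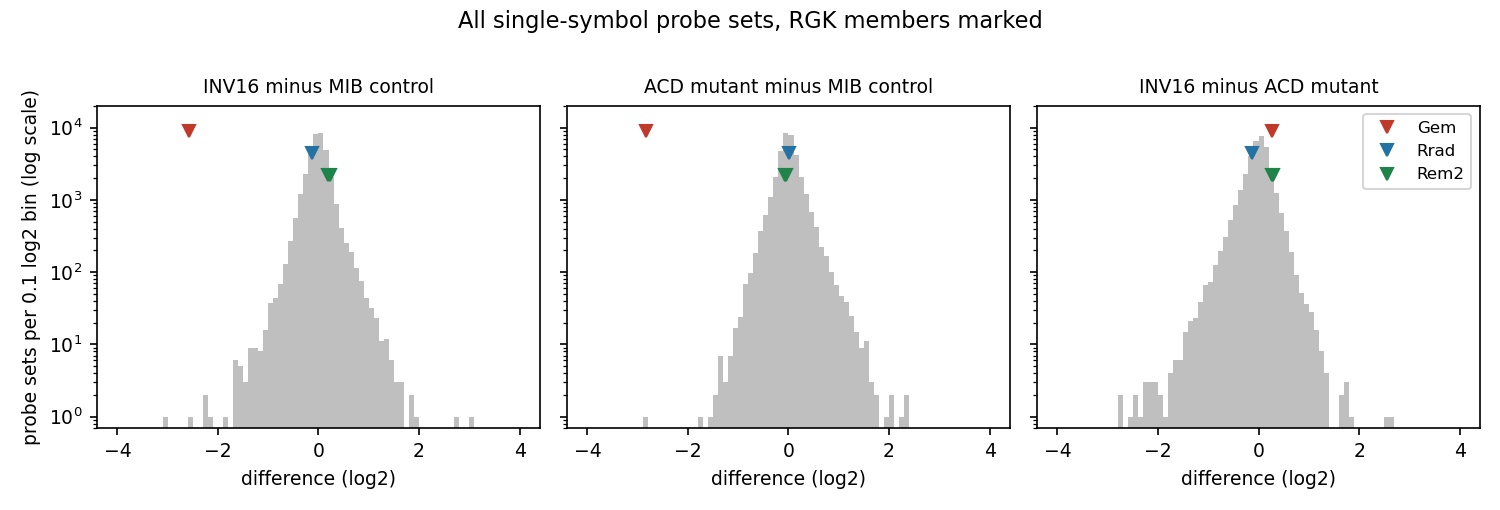
Number of single-symbol probe sets per 0.1 log2 bin (vertical axis, log scale) by the difference between groups (horizontal axis), for the 3 comparisons on 11 arrays; triangles mark the RGK probe sets and their height has no meaning. Gem lies at -2.57 and -2.83 against MIB control and at 0.26 between the fusion forms, while Rrad and Rem2 lie within 0.30 of 0 throughout.

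The drop took Gem from the upper part of the array to its middle or below. Gem outranked 74.3% to 81.0% of single-symbol probe sets on the MIB control arrays. It outranked 34.5% to 60.8% of them on INV16 replicates 1 to 3 and 42.1% to 56.8% on the ACD mutant arrays. On INV16 replicate 4 the share was 17.2%. Array values are compressed near background, so the folds for Gem may be understated, above all on INV16 replicate 3, whose 5.13 lies beside the 40th percentile of probe-set means at 5.10.

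The question of the assembly domain was put to Gem by comparing the fusion forms. The choice of Gem did not use this difference itself, but it asked for a lower level with both forms. A gene lowered by only 1 form would not have been chosen, so a small difference here does not answer the question. Gem was 0.26 log2 higher in INV16 than in the ACD mutant (SE 0.40, 95% interval -0.61 to 1.13, limma adjusted p = 0.825, n = 3 and 3). INV16 replicates 1 and 2 lay above all ACD mutant arrays, replicate 1 barely so, and INV16 replicate 3 below them. Without INV16 replicate 3 the difference was 0.82 (SE 0.29, adjusted p = 0.230). The difference over the 11 arrays was not larger than the spread between replicates, and its interval reaches further on the side of a higher level in INV16. In this comparison 0.793% of all probe sets were called. With INV16 replicate 4 included the sign turned, to -0.21 (SE 0.54, adjusted p = 0.886).

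This comparison was also entangled with the spike-in split, since the INV16 arrays compared sat on one side of it and the ACD mutant arrays on the other. Within the higher side, Gem differed by -2.70 log2 between 3 INV16 and 3 MIB control arrays. Within the lower side, it differed by -2.64 log2 between 3 ACD mutant and 2 MIB control arrays. MIB control itself differed by -0.32 log2 between the lower and the higher side. With the split as a block, the fusion forms differed by -0.06 (SE 0.61, adjusted p = 0.991).

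**Figure D3:**
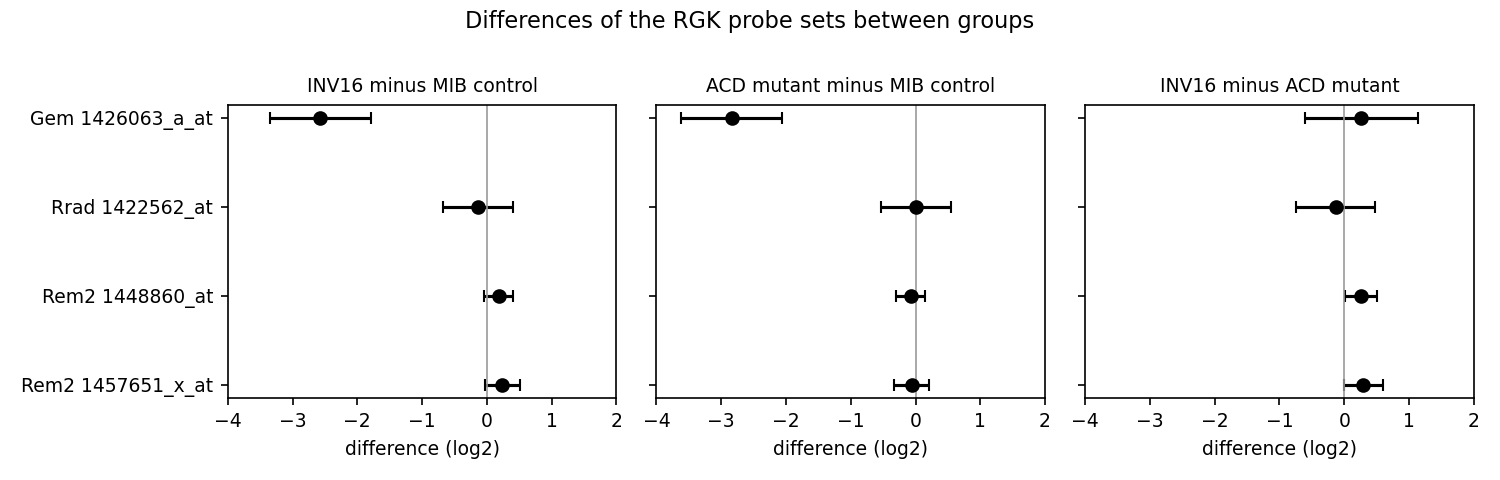
Difference in log2 units (horizontal axis) of each RGK probe set (vertical axis) in the 3 comparisons on 11 arrays; points are limma estimates and bars their 95% intervals. The intervals of Gem end at -1.79 and -2.05 against MIB control, values for which it was chosen, and include 0 between the fusion forms.

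RNA integrity and the makeup of the sorted cells were set beside Gem. The 3' minus 5' difference of Gapdh, which grows as RNA degrades, was 3.17 log2 on ACD mutant replicate 1 and 3.64 on INV16 replicate 4. On the other 10 arrays it was 1.10 to 1.98. Over those 10 arrays alone Gem measured 8.27 to 9.05 in MIB control, 5.13 to 6.95 in INV16 and 5.82 to 6.60 in the ACD mutant. The part of RNA integrity in the Gem values was not tested.

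Of 8 marker lists, 0 set both fusion groups apart from MIB control in the same direction, by the mean level or by the summed level. The neutrophil list had a mean level of 6.93 to 7.51 in INV16 and 7.65 to 9.37 in MIB control, but 7.62 to 8.06 in the ACD mutant. Lymphoid markers averaged 6.16 to 6.85 in INV16, above the 5.59 to 5.91 of MIB control, with the ACD mutant at 5.89 to 6.19. This list had 4 measured genes, of which Dntt varied most, from 6.08 to 11.09 over the 11 arrays. Il7r ran from 3.86 to 5.09, Cd3e from 6.72 to 7.08 and Cd79a from 4.88 to 5.35. Stromal and endothelial markers were 5.55 to 5.65 in INV16, 5.65 to 5.74 in MIB control and 5.61 to 5.72 in the ACD mutant. The log2 of the summed mast cell markers was 12.18 to 12.54 in the ACD mutant, 10.51 to 12.03 in MIB control and 10.85 to 11.26 in INV16. The part of these lists in the Gem values was not tested.

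Rrad, the relative first found through its expression in muscle, did not pass the test in any comparison. It measured 6.20, 5.61, 5.80, 6.31 and 5.84 in MIB control, 5.94, 6.45 and 5.08 in INV16 replicates 1 to 3, and 5.80, 5.99 and 6.08 in the ACD mutant. The groups overlapped, and INV16 held both the highest and the lowest array. INV16 replicate 3, the lowest of the 11 arrays for Rrad, was also the lowest of them for Gem.

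The difference of Rrad from MIB control was -0.13 in INV16 (SE 0.25, 95% interval -0.67 to 0.41, adjusted p = 0.892). In the ACD mutant it was 0.0032 (SE 0.25, interval -0.54 to 0.54, adjusted p = 0.998). On INV16 replicate 4, where Gem was lowest, Rrad measured 5.71, within the range of the control arrays. Between the fusion forms Rrad differed by -0.13 (SE 0.28, adjusted p = 0.879).

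Rem2, a member best known from neurons and pancreatic beta cells, was dim on the 11 arrays. Its brighter probe set, 1448860_at, measured 5.12 to 5.47 in MIB control (median 5.21). It read 5.57, 5.32 and 5.42 in INV16 replicates 1 to 3, and 5.09, 5.15 and 5.30 in the ACD mutant. The second, 1457651_x_at, lay under the 40th percentile, at 3.95 to 4.41 in MIB control (median 4.33). It read 4.64, 4.43 and 4.27 in INV16 and 4.17, 4.19 and 4.09 in the ACD mutant. The letter x marks probe sets whose probes may also bind other transcripts.

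Neither Rem2 probe set passed the test. INV16 differed from MIB control by 0.18 (SE 0.10, 95% interval -0.04 to 0.41, adjusted p = 0.504) and 0.24 (SE 0.12, interval -0.03 to 0.51, adjusted p = 0.466). The ACD mutant differed from MIB control by -0.07 (adjusted p = 0.823) and -0.06 (adjusted p = 0.897). All 3 INV16 arrays lay above all 3 ACD mutant arrays in both probe sets, by a mean of 0.26 (adjusted p = 0.307) and 0.30 (adjusted p = 0.340). Groups failed to overlap in that comparison for 23.2% of all probe sets. INV16 replicate 4 read 6.76 and 8.33, far above the other arrays in both probe sets, and with it INV16 differed from MIB control by 0.52 (adjusted p = 0.394) and 1.21 (adjusted p = 0.430).

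The RefSeq promoter table (GRCm38.p6) held the start regions of 2 of the 4 members, Rem1 and Rem2. The 250 bases before the start of Rem2, at chr14:54475850-54476099 on the plus strand, are shown because Rem2 is the member with measured values whose upstream sequence was at hand. Capitals mark the GATA-factor motif AGATAA, which lies here on the reverse strand as TTATCT, 178 bases before the start.
Rem2: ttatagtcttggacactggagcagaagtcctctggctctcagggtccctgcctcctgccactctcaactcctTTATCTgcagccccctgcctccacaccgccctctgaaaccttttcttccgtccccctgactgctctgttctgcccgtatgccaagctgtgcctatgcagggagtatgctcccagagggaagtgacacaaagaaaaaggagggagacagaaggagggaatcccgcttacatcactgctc
On both strands, AGATAA occurred in 9.99% of 32851 promoter windows of this length. The RUNX core TGTGGT, the site of the DNA-binding partners of CBFB, occurred in 14.0% of them and the cyclic AMP response element TGACGTCA in 1.55%. The windows of Rem1 and Rem2 held 0 copies of these last motifs, which says only that those letters are not in these windows.

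No partner of the RGK proteins passed the test. Of 23 fixed partners and effectors 18 were measured, by 65 probe sets, and limma called 0 of these in any comparison. At an unadjusted p under 0.05 there were 10 in INV16 and 9 with the ACD mutant, each against MIB control, and 6 between the fusion forms. Over all probe sets these shares were 12.7%, 15.5% and 15.2%. The median difference was -0.02, -0.04 and -0.0025 in these comparisons, beside 0.0013, -0.0034 and 0.01 over all probe sets.

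Named by role rather than by value, Gmip, a binding partner of Gem, differed from MIB control by -0.10 (adjusted p = 0.878) and 0.12 (adjusted p = 0.833). The membrane linker Ezr differed by 0.07 (adjusted p = 0.919) and 0.20 (adjusted p = 0.635) in the same order.

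The channel subunits on which RGK proteins act gave no call. Of 16 genes for pore, alpha2delta and beta subunits, 9 had a probe set above the 40th percentile and 7 did not. The beta subunit Cacnb2 measured 6.88 ± 0.17 (SD, n = 5) in MIB control, with an INV16 mean of 6.66 ± 0.15 and an ACD mutant mean of 6.84 ± 0.37 (SD, n = 3 each). The pore subunit Cacna1f averaged 6.51 over the 11 arrays. Of the 31 probe sets for pore and alpha2delta subunits limma called 0 in all 3 comparisons. The number at an unadjusted p under 0.05 was 0 in both comparisons with MIB control and 3 between the fusion forms, beside 12.7% and 15.5% of all probe sets in the former and 15.2% in the latter.

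The other Ras-family GTPases gave 1 call in each direction, in the ACD mutant. Of 29 genes 27 were measured by 51 probe sets. Limma called 0 of these in INV16 against MIB control, with 5 at an unadjusted p under 0.05 beside 12.7% of all probe sets. The lowest value there was -1.02 (adjusted p = 0.142), for Diras2. In the ACD mutant limma called 1 higher and 1 lower, beside 0.569% and 0.383% of all probe sets. Nkiras1, an inhibitor of NF-kB signalling, fell from 7.50 ± 0.14 (SD, n = 5) to 6.99 ± 0.13 (SD, n = 3; -0.50, SE 0.10, adjusted p = 0.0433). A probe set of Ralb, a GTPase of membrane traffic, rose from 7.35 ± 0.21 to 8.18 ± 0.35 (0.84, SE 0.17, adjusted p = 0.0426), while another Ralb probe set differed by 0.19 (adjusted p = 0.456). Between the fusion forms limma called 0, with 8 at an unadjusted p under 0.05 beside 15.2% of all probe sets.

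Both calls depended on the setting. Nkiras1 kept its call in 6 of 20 other settings and Ralb in 10 of 20. Nkiras1 lost it without any 1 of MIB control replicates 3 to 5, INV16 replicates 1 to 3 and ACD mutant replicates 1 and 2 (-0.53 to -0.43). Ralb lost it without MIB control replicate 5, INV16 replicate 1 or any 1 of the ACD mutant arrays (0.67 to 1.02). With the spike-in split as a block both lost it, at adjusted p = 0.192 and adjusted p = 0.120.

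Gem is itself an early response gene, so the immediate early and CREB-target list was set beside it. Of 23 genes, all measured by 42 probe sets, limma called 2 probe sets higher and 0 lower in INV16, with 10 at an unadjusted p under 0.05. Over all probe sets 0.435% were called higher and 0.466% lower in that comparison, and 12.7% passed the unadjusted threshold. In the ACD mutant 1 was higher and 0 lower, with 6 at an unadjusted p under 0.05, where 0.569% of all probe sets were higher, 0.383% lower and 15.5% past the unadjusted threshold. Between the fusion forms 1 was higher and 0 lower, with 11 at an unadjusted p under 0.05 beside 15.2% of all probe sets. The median difference was 0.06 in both comparisons. Rgs2, a brake on G protein signalling, rose from 8.89 ± 0.14 (SD, n = 5) to 9.75 ± 0.07 (SD, n = 3) in INV16 (0.86, SE 0.10, adjusted p = 0.00251). In the ACD mutant this probe set rose to 9.36 ± 0.08 (0.47, SE 0.10, adjusted p = 0.0468).

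The 3 other Rgs2 probe sets differed by 0.04 to 0.24 in INV16 and by 0.07 to 0.48 in the ACD mutant, and none was called. The INV16 call of Rgs2 held in 17 of 19 other settings. It was lost within the higher spike-in side (0.84, adjusted p = 0.0835) and with the replicate number as a block (0.55). In that block only MIB control replicate 3 shared a number with fitted fusion arrays, so it is the only control compared. The ACD mutant call held in 4 of 19, and single arrays ended it: any 1 of MIB control replicates 4 to 6, INV16 replicates 1 to 3 and ACD mutant replicates 1 to 3 (0.43 to 0.51).

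Dusp2, a phosphatase that switches off MAP kinases, rose in INV16 from 8.39 ± 0.26 (SD, n = 5) to 9.42 ± 0.41 (SD, n = 3; 1.03, SE 0.18, adjusted p = 0.0196). It was also higher in INV16 than in the ACD mutant (0.97, SE 0.20, adjusted p = 0.0434), the 1 probe set of the list called there, where 0.152% of all probe sets were called higher. Leaving out MIB control replicate 5 (1.03, adjusted p = 0.0527), INV16 replicate 1 (0.96, adjusted p = 0.133) or INV16 replicate 2 (0.87, adjusted p = 0.0936) ended the call against MIB control. So did including INV16 replicate 4 (0.67, adjusted p = 0.378), the 2-group fit (1.03, adjusted p = 0.0662) and the higher spike-in side alone (1.07, adjusted p = 0.199). The replicate block (0.48), with MIB control replicate 3 as its only control, ended it as well. The call against MIB control held in 13 of 20 other settings. The call against the ACD mutant was lost without MIB control replicate 5 or 6, INV16 replicate 1 or 2, or any 1 ACD mutant array (0.81 to 1.01). It was lost too with INV16 replicate 4 included (0.61, adjusted p = 0.533) and with the spike-in split as a block (1.07, adjusted p = 0.403), and held in 10 of 19 other settings.

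**Figure D4:**
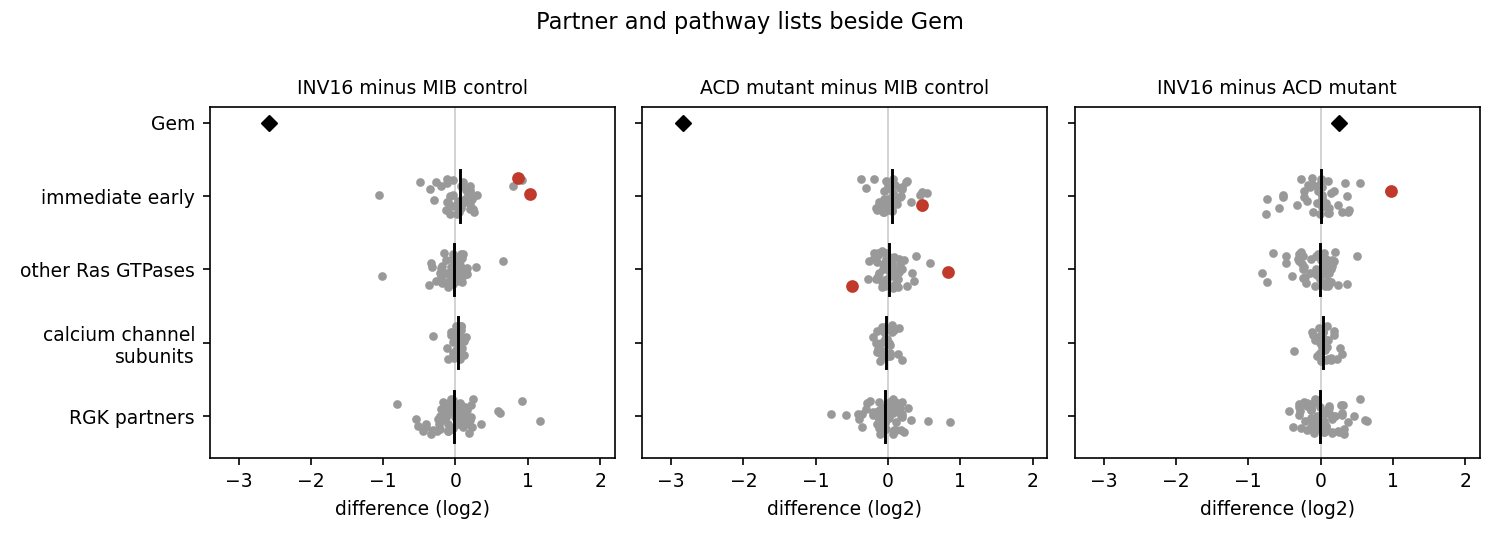
Difference in log2 units (horizontal axis) of every probe set in the 4 fixed lists, with Gem as a diamond, in the 3 comparisons on 11 arrays; red points passed limma's test at an adjusted p under 0.05, grey points did not, and black bars are list medians. The list medians lie between -0.04 and 0.06, with Gem at -2.57 and -2.83 against MIB control.

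Of the factors that pair with CBFB, Runx3 followed another course than Gem. Runx3 differed from MIB control by -1.65 (SE 0.19, adjusted p = 0.00338) in INV16 and by -0.16 (SE 0.19, adjusted p = 0.790) in the ACD mutant. Between the fusion forms it differed by -1.49 (SE 0.22, adjusted p = 0.0116), where Gem differed by 0.26. Runx1 differed by 0.30 (adjusted p = 0.806) in INV16 and 1.03 (adjusted p = 0.174) in the ACD mutant. Cbfb differed by -0.05 (adjusted p = 0.919) and -0.30 (adjusted p = 0.213).

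The genes beside Gem on its chromosome, chosen after the Gem values were seen, were read from the RefSeq gene order, 3 protein-coding genes on each side. Of these Rad54b, Cdh17, Pdp1 and Tmem67 had a single-symbol probe set. Pdp1, a phosphatase that activates pyruvate dehydrogenase, had 2 probe sets, and the values of the other are not given here. The probe set given had a mean of 8.06 in MIB control, 7.17 in INV16 and 7.35 in the ACD mutant. Its differences of -0.89 (SE 0.21, adjusted p = 0.0771) and -0.71 (SE 0.21, adjusted p = 0.113) did not pass the test. Rad54b, a DNA repair gene, differed by -0.24 (adjusted p = 0.577) and -0.06 (adjusted p = 0.921). Cdh17, next to Gem, was dim at 3.93 to 4.76 and differed by -0.18 (adjusted p = 0.640) and -0.40 (adjusted p = 0.151). Tmem67 was dim too, at 3.68 to 4.06.

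Genes with a pattern like that of Gem were sought by Pearson correlation over the 11 arrays, among 22693 probe sets above the 40th percentile, as a description. The points share the 3 groups and the same arrays, so any gene that differs from MIB control in both fusions scores highly. The correlation was above 0.9 for 43 probe sets and below -0.9 for 8. The 10 genes most alike were Trim13 (r = 0.961), Pigq (0.951), Cdc7 (0.949), Med7 (0.939), Hnrnpa2b1 (0.937), Ccdc50 (0.932), Setd6 (0.932), Smyd3 (0.926), Paxbp1 (0.925) and Dpf2 (0.924). Each gene is given by its highest-scoring probe set. Trim13 and Med7 had 1 probe set and the others 2 to 7, and the remaining probe sets are not given.

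Their shifts were far smaller than that of Gem. Med7, a subunit of the Mediator complex, had the largest, -0.97 in INV16 and -0.80 in the ACD mutant. Cdc7, a kinase that starts DNA replication, differed by -0.49 and -0.62, and Trim13, a ubiquitin ligase, by -0.37 and -0.47. Around the group means alone, the correlation with Gem was 0.59 for Setd6 and 0.92 for Dpf2, a chromatin remodelling subunit, with the other 8 in between. On INV16 replicate 4 the likeness held for some and not for others. Over 12 arrays r was 0.955 for Med7 and 0.182 for Hnrnpa2b1, an RNA-binding protein that was 11.10 on that array against a MIB control mean of 10.59.

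**Figure D5:**
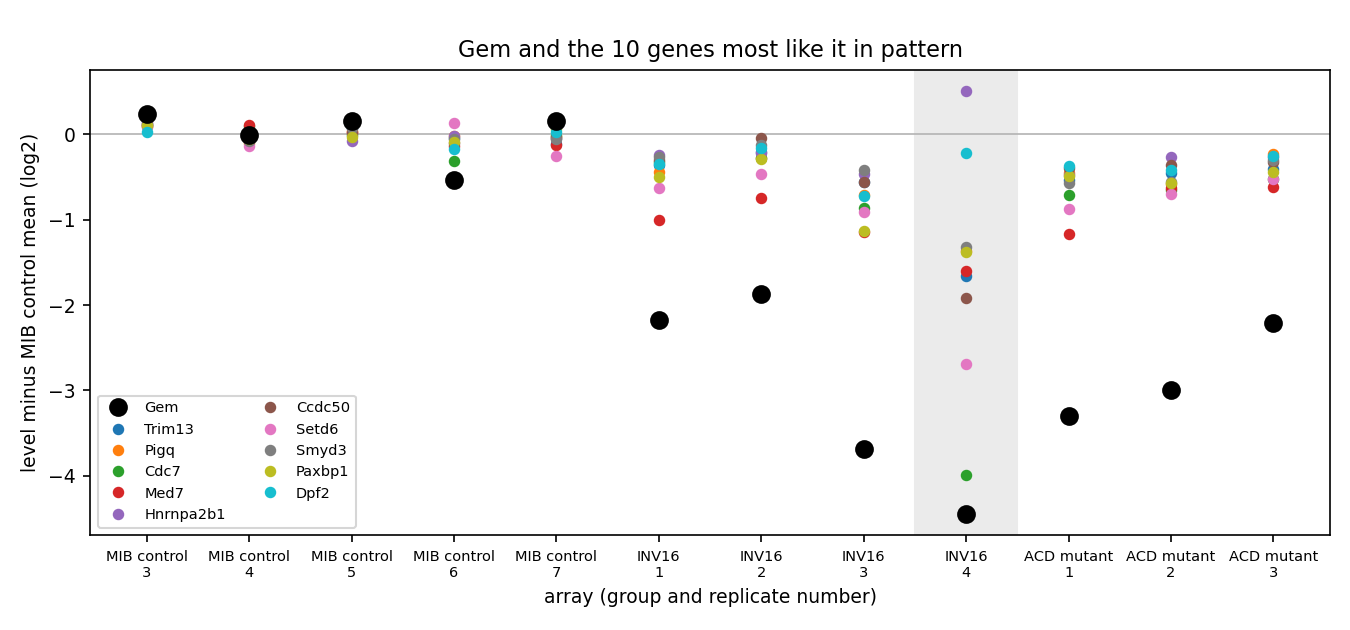
Level minus the MIB control mean in log2 units (vertical axis) for Gem and the 10 genes most like it, on each of the 12 arrays (horizontal axis, group and replicate number); the shaded array is INV16 replicate 4, which was not used to pick the genes. Gem lies between -1.86 and -3.69 on the INV16 arrays outside the shading and between -2.21 and -3.30 on the ACD mutant arrays, below each of the 10 genes.

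The 5 genes most opposite to Gem were Klf3 (r = -0.971), Srgap2 (-0.958), Bcr (-0.939), Elf4 (-0.926) and Bbx (-0.920). Srgap2 was 0.42 higher than MIB control in INV16 and 0.37 in the ACD mutant, and Bcr 0.46 and 0.39. The Klf3 probe set, 1 of 7 for this zinc finger transcription factor, was 0.26 and 0.28 higher. Bbx had the largest shift, 0.91 and 1.11. Around the group means alone its correlation with Gem was -0.33, beside -0.76 to -0.89 for the others. Over 12 arrays r was 0.162 for Bcr, -0.485 for Bbx and -0.869 to -0.916 for Klf3, Elf4 and Srgap2. Each of these genes had 2 to 7 probe sets and is given by its most opposite. Of these 15 alike and opposite genes 13 were in the promoter table, and TGTGGT was found upstream of 3 of them, beside 14.0% of all windows. AGATAA and TGACGTCA were found upstream of 0 of the 13, beside 9.99% and 1.55% of all windows.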

How the data were processed

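One array per sample was measured for 12 samples. The deposited values are on a log2 scale, read from their range of 2.82 to 14.97, and were summarised per probe set by the authors with a method not given in the sources used here. The platform annotation gave the gene names: 34958 of 45101 had 1 symbol, 932 several and 9211 none. After 64 control probe sets were left out, 34945 remained, and 34741 of these matched the RefSeq gene table by Entrez identifier. Columns left unused numbered 0.

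A limma (version 3.58.1, R version 4.3.3) model with a mean per group was fitted to 11 arrays, INV16 replicate 4 apart (8 residual and 4.50 prior degrees of freedom). Tests were two-sided and adjusted by Benjamini-Hochberg over 34945 probe sets. Replicate numbers shared across groups were not used as pairs. Of the MIB control arrays, only replicate 3 shared its number with fitted fusion arrays. The members, lists and rules were chosen with earlier results of these data known. Named genes are the members, up to 4 called genes per list, the 10 most and 5 least like Gem, the CBFB partners and the cell markers; genes named by role or place are said to be so. The other settings were all 12 arrays, each array left out, quantile normalisation, the 40th percentile filter, 1 probe set per gene, an intensity trend, fits to 2 groups, the spike-in split and the replicate number as blocks, and, added after the data were seen, each spike-in side alone. One further gene list is not reported here.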

Additional observations from a re-analysis of the deposited data

Results flagged for a closer look

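Rem2 was far higher on INV16 replicate 4, the array left out of the comparisons, than on any other. Its probe set 1457651_x_at measured 8.33 there against 4.27 to 4.64 on the other INV16 arrays, a gap that made up most of the range of the group (Dixon ratio 0.908, above the 95% critical value for 4 samples), and 3.95 to 4.41 in MIB control. The other Rem2 probe set, 1448860_at, measured 6.76 there against 5.12 to 5.47 in MIB control. In rank, Rem2 outranked 78.9% and 60.8% of probe sets on this array. Of 8 groups of member values examined for single arrays far from the rest, 1 was marked, where chance marks about 1 in 20. The marked array had been set apart beforehand, so nothing is concluded from that rate. The array also carried mast cell transcripts, with the mean of 8 mast cell markers at 10.69 against 6.21 to 7.10 on the other 11 arrays, and a Gapdh 3' minus 5' difference of 3.64; their part in the Rem2 values was not tested.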

How the results depend on the processing

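Gem stayed lower than MIB control in all 20 other settings of each comparison, at -3.05 to -2.02 log2 in INV16 and -3.31 to -2.60 in the ACD mutant. Gem was chosen for these differences and the settings share most arrays, so their common direction is a description and no test. The replicate block gave the lowest of each (-3.05 and -3.31). In that block only MIB control replicate 3 shared a number with fitted fusion arrays. Its differences from MIB control therefore rest on that control array alone. Leaving out 1 array gave -2.93 to -2.02 in INV16 and -3.15 to -2.60 in the ACD mutant. Between the fusion forms Gem was never called in 19 other settings (adjusted p = 0.230 to 0.991). Its sign turned with all 12 arrays (-0.21) and the spike-in block (-0.059), and leaving out 1 array gave -0.094 (without INV16 replicate 2) to 0.82 (without INV16 replicate 3). Rrad in the ACD mutant turned sign after quantile normalisation (-0.0055), with the spike-in block or its lower side alone (-0.12) and with the replicate block (-0.56), and ran from -0.082 to 0.092 without 1 array. Without INV16 replicate 3 Rrad turned to 0.24 against MIB control and against the ACD mutant; leaving out 1 array gave -0.44 to 0.24 and -0.45 to 0.24, and the spike-in block 0.066 between the fusion forms. The replicate block turned Rem2 in the ACD mutant to 0.037 and 0.076. None of these was called.

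The counts of called probe sets (against MIB control 315 in INV16 and 333 in the ACD mutant, and 277 between the forms) moved more. All 12 arrays gave 44, 5 and 22. Fits to 2 groups gave 104, 129 and 1028. The spike-in block gave 158, 23 and 0 (limma, 3010 at unadjusted p under 0.05). Each spike-in side alone gave 12 and 102. The replicate block gave 0 in INV16 (3637 at unadjusted p under 0.05) and 6 in the ACD mutant, and 264 between the forms. One probe set per gene gave 220 in the ACD mutant. Leaving out 1 array gave 36 (INV16 replicate 1) to 604 (MIB control replicate 3), 8 (ACD mutant replicate 2) to 682 (MIB control replicate 7) and 38 (INV16 replicate 2) to 493 (MIB control replicate 7). In the 4 gene lists, 0 to 3 probe sets were called in any setting. Quantile normalisation moved the split between the forms from 53 higher and 224 lower to 77 and 178. Deviations of arrays with the same number correlated at -0.32 to 0.03 over 5 pairs, beside -0.23 to 0.43 over 34 pairs with different numbers. So few pairs cannot decide whether a number marks a shared preparation, and nothing is concluded from the replicate block. The causes were not tested.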
